A study of Homo sapiens with 18 samples.

Results

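The GREB1 locus was followed in T47D cells as 47 accessible regions out of the 132604 regions of the count table. They were chosen by position: every region that overlaps chromosome 2 between positions 11600000 and 11850000 in the human build hg19 was taken, a window of 250 kb, and GREB1 was placed at 11.674 to 11.783 Mb. The locus itself was picked with earlier results of these data known, from the same comparisons as those below, so its values are a description and the p-values beside them are no independent support. By their midpoints, 11 regions lay before the GREB1 start, 25 lay inside its 109 kb span and 11 lay beyond its end. All 47 passed the filter on low counts.

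T47D is an established human breast carcinoma line. All cells were grown in hormone-depleted medium without phenol red, were then held in very low serum to synchronise them, and received R5020 or its DMSO vehicle. R5020 (promegestone) is a synthetic progestin. The groups at 6 h were vehicle, 0.1 nM R5020 and 10 nM R5020, and the same were taken at 18 h. Each of these 6 groups holds 3 libraries.

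Omni-ATAC-seq measures open chromatin: the Tn5 transposase inserts sequencing adapters into accessible DNA, so more reads come from a region that is more open. Progestins act through the progesterone receptor, a transcription factor of the nuclear receptor family that binds DNA once it holds its ligand, often at sites far from promoters. GREB1 encodes a cofactor of the estrogen receptor and is one of the best known early estrogen-responsive genes of breast cancer cells. It is flanked in the RefSeq gene order by E2F6, a repressor of the E2F transcription factor family, on one side, and by NTSR2, a neurotensin receptor, and LPIN1, a phosphatidate phosphatase, on the other. Only the order of these genes was used and not their hg19 positions, so regions outside the GREB1 span may belong to them. RefSeq gives GREB1 a length of 159.9 kb in GRCh38.p14, which is more than the span used here, so some regions counted as outside the span may lie in a longer gene model. Whether a region is a promoter, an exon or an intron was not analysed here, nor were RNA levels or markers of the cell line.

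Levels are given as CPM, the count per megaread of a library, whose total is corrected by its TMM factor. Totals ran from 8756311 to 39984217 reads in regions per library. Single counts in the 47 regions ran from 1 to 1240, and CPM is not divided by the width of a region, which ran from 144 to 1666 bp. The percent of a library's reads in the 5000 strongest regions of the table was 39.1 ± 2.39 with vehicle at 6 h, 38.1 ± 1.37 with 0.1 nM and 34.1 ± 0.559 with 10 nM (SD, n = 3 each). At 18 h it was 38.2 ± 2.02 with vehicle, 36.4 ± 3.29 with 0.1 nM and 33.6 ± 3.45 with 10 nM. This share was lowest with 10 nM at both times, and its part in the results was not tested beyond the fit with it as a covariate. Of all libraries, 10 nM 18 h replicate 1 and vehicle 6 h replicate 1 deviated most from the mean of their group. The SD of their deviations in log2 CPM was 0.6601 and 0.5428. The next library, 0.1 nM 6 h replicate 2, was close to the second at 0.531. By rank alone, the first 2 are called below the libraries that lay apart. Results that change without them are given with both values. The labels do not say that replicates are separate cultures: the p-values then reflect only how far these libraries differ, which may be a technical spread.

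In vehicle cells the locus was already open at a few strong regions. Mean vehicle levels over the 6 libraries ran from 0.245 to 25.3 CPM, with a median of 2.64 CPM against 2.13 CPM over all tested regions. The highest vehicle levels were those of the region 68 kb before the start (chr2:11605367-11606893) and of the region 51 kb before it (chr2:11622257-11623923). In all 4 R5020 groups the highest level of the locus was instead that of the region 6 kb inside GREB1 (chr2:11679328-11680883).

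The 68 kb region is also the first one inside the window, and it differed widely between libraries. At 6 h it had 44.0, 25 and 16.7 CPM with vehicle, 27.6, 14.9 and 18.9 CPM with 0.1 nM, and 21.9, 19.8 and 16.6 CPM with 10 nM. Replicate 1 was the highest library in each of the 6 groups, and all groups overlapped. Just outside the window, the nearest region before it (chr2:11586937-11587224) averaged 2.08 CPM with vehicle at 6 h, 1.29 CPM with 0.1 nM and 0.987 CPM with 10 nM. The nearest region beyond it (chr2:11862714-11863171) averaged 0.882, 0.855 and 2.67 CPM in the same groups, and the last region inside (chr2:11837400-11837885) 2.32, 3.57 and 3.89 CPM.

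**Figure D1:**
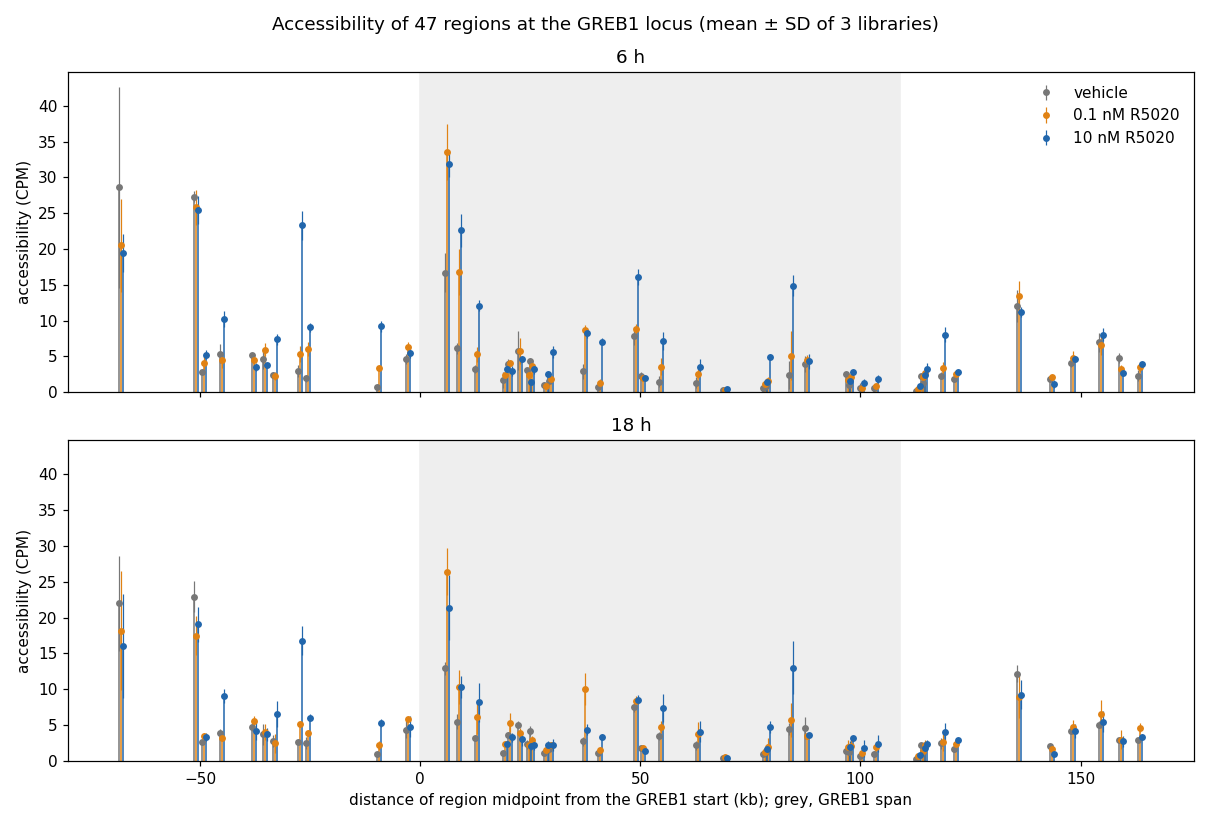
Mean accessibility in CPM (y axis; bars, SD of 3 libraries) of each of the 47 regions against the distance of its midpoint from the GREB1 start in kb (x axis), with the GREB1 span in grey, at 6 h (upper) and 18 h (lower). With 10 nM at 6 h the region 27 kb before the start stood at 23.3 CPM against 3.03 CPM with vehicle, while the 2 strongest vehicle regions 68 and 51 kb before the start were not called higher.

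The first question was how the locus responds to the high dose. With 10 nM R5020 for 6 h, 26 of the 47 regions rose and 2 fell against vehicle (edgeR adjusted p under 0.05). That is 55.3% and 4.26% of the locus, beside 16.7% of all 132304 tested regions called higher and 8.42% called lower. The median log2 fold change was 0.94 at the locus and -0.05 over all tested regions. Before the start, 6 of 11 regions rose; inside the span 16 of 25 rose and 1 fell; beyond the end 4 of 11 rose and 1 fell. The rises ran from 0.69 to 3.62 on the log2 scale, with a median of 1.57, and were spread over 213.1 kb. Regions that rose had a median vehicle level of 1.83 CPM at 6 h, and the 19 regions with no call one of 4.1 CPM. The rises were measured against these same vehicle libraries, so a low vehicle level favours a call. For the calls at 18 h the medians did not differ in this way, at 2.67 CPM for rises and 2.68 CPM for no call. Without the 2 libraries named above, 22 regions rose and 1 fell, beside 14.2% and 5.84% of all regions tested then. With the share of the strongest regions as a covariate, 21 rose and 2 fell, beside 18.5% and 12%. With single libraries left out, 21 to 24 rose, with no share of all tested regions taken.

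At 18 h, 15 regions rose with 10 nM against vehicle and 2 fell. That is 31.9% and 4.26% of the locus, beside 12.8% and 7.56% of all tested regions. The median log2 fold change was 0.61 at the locus and 0.01 over all tested regions. The rises divided into 5 of 11 before the start, 9 of 25 inside the span and 1 of 11 beyond the end, and ran over 160.4 kb. They numbered 10 to 15 with single libraries left out, with no share of all tested regions taken.

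**Figure D2:**
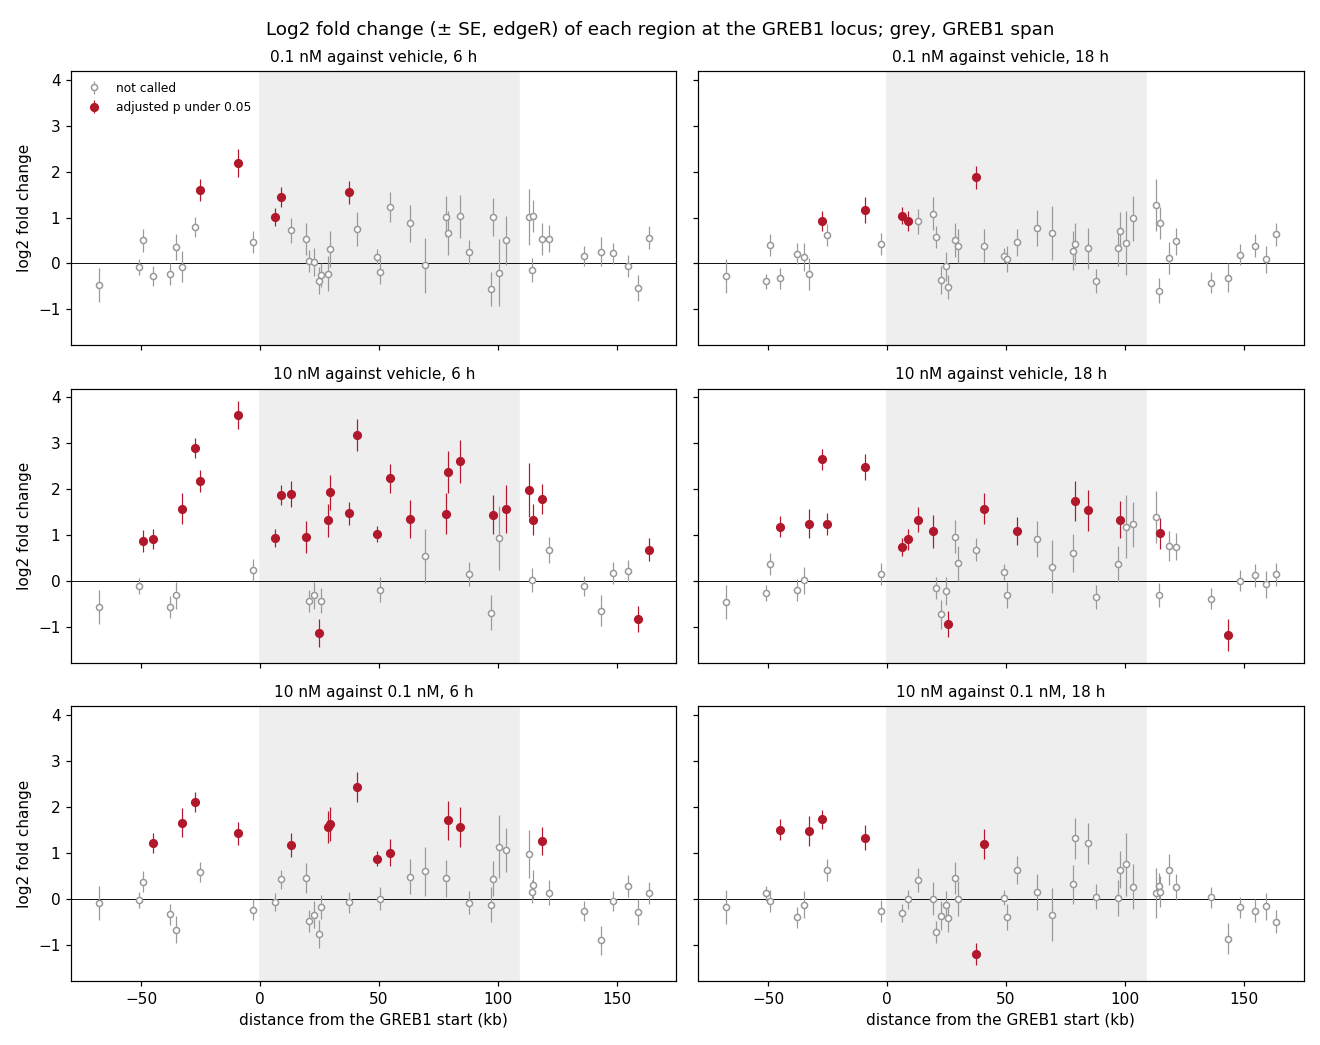
Log2 fold change (y axis; bars, edgeR SE) of each region against its distance from the GREB1 start in kb (x axis), for 0.1 nM against vehicle, 10 nM against vehicle and 10 nM against 0.1 nM, at 6 h (left) and 18 h (right). Filled red points are called at an adjusted p under 0.05: 5, 26 and 13 rises at 6 h, and 5, 15 and 5 at 18 h.

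The low dose reached fewer regions. With 0.1 nM, 5 of the 47 regions rose against vehicle at 6 h and none fell, which is 10.6% of the locus beside 0.949% of all tested regions called higher and 0.241% called lower. With the strongest-region share as a covariate the 5 rises were 8 and none fell, beside 2.18% higher and 0.834% lower of all tested regions. At 18 h again 5 rose and none fell, also 10.6%, beside 1.74% and 0.698% of all tested regions. The median log2 fold change was 0.36 at the locus and -0.04 over all tested regions at 6 h, and 0.39 at the locus and -0.01 over all tested regions at 18 h. At each time 2 of the rises lay before the start and 3 inside the span, and none lay beyond the end. They were held within 63.4 kb at 6 h and 65.6 kb at 18 h. The 18 h count rested on single libraries: it was 2 without 0.1 nM replicate 2 or without vehicle replicate 1, and 3 without 0.1 nM replicate 1, vehicle replicate 2 or vehicle replicate 3. It was also 2, with no fall, when only the compared groups entered the fit, beside 1.51% higher and 0.663% lower of the regions tested then. The comparisons of 0.1 nM and 10 nM share their vehicle libraries, so their calls are not independent.

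Set directly against 0.1 nM, 10 nM gave higher accessibility at 13 regions at 6 h and lower at none. That is 27.7% of the locus, beside 15.1% higher and 5.25% lower of all tested regions. At 18 h, 5 regions were higher with 10 nM and 1 was lower, which is 10.6% and 2.13% of the locus beside 6.67% and 4.22% of all tested regions. The 18 h count of higher regions depended on the fit: it was 9 with the strongest-region share as a covariate, beside 9.94% of all tested regions, and 3 with only the compared groups, beside 3.69%. In each of these fits 1 region was lower, beside 7.08% of all tested regions with the covariate and 1.37% with only the compared groups. In this comparison at 18 h, libraries of equal replicate number deviated alike from their group means. The labels state no pairing, and replicate 1 was the deepest and replicate 3 the shallowest in both groups. Whether the likeness comes from pairing or from depth was not tested. A fit with the replicate block called 7 of the 47 higher and 2 lower, beside 8.86% and 6% of all tested regions. The further lower call was that of chr2:11694036-11694716, which was named after its values were seen (log2 fold change -0.71, edgeR adjusted p = 0.0466 with the block).

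The steepest rise of the locus lay before the start. The region 9 kb before the start (chr2:11664412-11664932) had 0.84, 0.921 and 0.405 CPM with vehicle at 6 h, 3.57, 3.34 and 3.34 CPM with 0.1 nM, and 8.62, 10.1 and 9.02 CPM with 10 nM. The 3 groups did not overlap and stood in the order of dose. The rise with 10 nM was 12.3-fold (log2 3.62, SE 0.30; edgeR adjusted p = 6.33e-08), and that with 0.1 nM was 4.56-fold (edgeR adjusted p = 0.000303). Its level with 10 nM was 2.70 times that with 0.1 nM (edgeR adjusted p = 0.000279).

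The same region kept this order at 18 h, at lower levels in both R5020 groups. It had 0.819, 0.772 and 1.24 CPM with vehicle, 1.61, 1.94 and 2.92 CPM with 0.1 nM, and 5.83, 5.15 and 4.75 CPM with 10 nM. The rise was 5.62-fold with 10 nM (edgeR adjusted p = 3.06e-06) and 2.23-fold with 0.1 nM (edgeR adjusted p = 0.0379), and 10 nM was 2.52-fold above 0.1 nM (edgeR adjusted p = 0.00222). The 0.1 nM call was lost when 0.1 nM replicate 2 or 3 or vehicle replicate 1 or 2 was left out, with edgeR adjusted p between 0.0724 and 0.197, and when only the compared groups entered the fit (edgeR adjusted p = 0.207).

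The region 27 kb before the start (chr2:11646107-11647049) responded mainly to the high dose. At 6 h it had 2.10, 3.76 and 3.24 CPM with vehicle, 6.29, 5.73 and 4.14 CPM with 0.1 nM, and 21.8, 25.7 and 22.6 CPM with 10 nM. All 3 groups were apart, but the step to 10 nM was the larger one. The rise with 10 nM was 7.49-fold (log2 2.90, SE 0.22; edgeR adjusted p = 3.33e-08). The 1.73-fold difference with 0.1 nM was not called (edgeR adjusted p = 0.0928); it was called with the strongest-region share as a covariate (edgeR adjusted p = 0.0311). With 10 nM the region stood 4.33-fold above 0.1 nM (edgeR adjusted p = 6.73e-07).

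At 18 h this region had 2.93, 2.78 and 2.30 CPM with vehicle, 5.19, 5.05 and 5.06 CPM with 0.1 nM, and 18.7, 17.2 and 14.6 CPM with 10 nM. Again no group overlapped another. It was 6.29-fold above vehicle with 10 nM (edgeR adjusted p = 1.14e-07) and 1.90-fold above it with 0.1 nM (edgeR adjusted p = 0.0245). The 0.1 nM call was lost without 0.1 nM replicate 1 or 2 or any 1 of the vehicle libraries, with edgeR adjusted p between 0.0711 and 0.105, and with only the compared groups (edgeR adjusted p = 0.0573). The neighbouring region 25 kb before the start (chr2:11648303-11648836) had 1.47, 2.39 and 1.94 CPM with vehicle at 6 h, 7.18, 5.19 and 5.76 CPM with 0.1 nM, and 8.39, 9.13 and 9.63 CPM with 10 nM.

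Here the low dose came nearer to the high one than at the neighbouring region, yet the dose groups did not overlap at 6 h or at 18 h. At 6 h the rise was 4.53-fold with 10 nM (edgeR adjusted p = 1.75e-06) and 3.04-fold with 0.1 nM (edgeR adjusted p = 0.000977). The 1.49-fold difference between the doses was not called (edgeR adjusted p = 0.0706); it was called by DESeq2 (adjusted p = 0.0397), and by edgeR without the 2 libraries that lay apart (adjusted p = 0.0364), with only the compared groups (adjusted p = 0.0226) and with total-count scaling (adjusted p = 0.0496). At 18 h the region averaged 2.50 ± 0.792 CPM with vehicle, 3.86 ± 0.412 CPM with 0.1 nM and 6.02 ± 0.458 CPM with 10 nM (SD, n = 3 each). Only the 10 nM rise was then called, at 2.38-fold (edgeR adjusted p = 0.000657).

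Farther out, regions 33 and 45 kb before the start rose with 10 nM, while the 0.1 nM means lay below those of vehicle and were not called. The 33 kb region (chr2:11640657-11641268) had 2.31, 2.91 and 2.02 CPM with vehicle at 6 h, 2.89, 2.27 and 1.80 CPM with 0.1 nM, and 7.5, 8.06 and 6.56 CPM with 10 nM. The 10 nM libraries stood above all others and the other groups overlapped. It was 3.0-fold above vehicle at 6 h (edgeR adjusted p = 0.00115) and 2.38-fold at 18 h (edgeR adjusted p = 0.00797). The log2 fold change of 0.1 nM was -0.07 at 6 h and -0.23 at 18 h, neither of them called; 1.96 SE either side gave -0.73 to 0.58 and -0.90 to 0.43.

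The 45 kb region (chr2:11628499-11629326) was already moderately open. It had 6.30, 5.93 and 3.89 CPM with vehicle at 6 h, 3.43, 5.55 and 4.4 CPM with 0.1 nM, and 8.9, 11 and 10.7 CPM with 10 nM. At 18 h it had 3.88, 4.53 and 3.48 CPM with vehicle, 2.86, 3.32 and 3.40 CPM with 0.1 nM, and 9.85, 7.93 and 9.32 CPM with 10 nM. At each time only the 10 nM libraries stood clear above vehicle, and the difference between doses exceeded that between 10 nM and vehicle. With 10 nM it was 1.90-fold above vehicle and 2.31-fold above 0.1 nM at 6 h (edgeR adjusted p = 0.00339 and 0.000398), and 2.28-fold and 2.86-fold at 18 h (edgeR adjusted p = 0.000538 and 0.00018).

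The strong region 51 kb before the start did not pass the test in any of these comparisons. It averaged 27.3 ± 0.752 CPM with vehicle at 6 h, 25.8 ± 2.40 CPM with 0.1 nM and 25.4 ± 1.95 CPM with 10 nM (SD, n = 3 each), and the log2 fold change of 10 nM was -0.10 with 1.96 SE either side reaching from -0.44 to 0.23. At 18 h it averaged 22.9 ± 2.17 CPM with vehicle, 17.5 ± 2.76 CPM with 0.1 nM and 19.1 ± 2.45 CPM with 10 nM. All 0.1 nM libraries then lay below vehicle (log2 fold change -0.39, 1.96 SE either side from -0.73 to -0.05, edgeR adjusted p = 0.376), and 10 nM overlapped vehicle. The region nearest to the start, 3 kb before it (chr2:11670984-11671463), did not pass the test either. It averaged 4.59 ± 0.701 CPM with vehicle at 6 h, 6.34 ± 0.641 CPM with 0.1 nM and 5.42 ± 0.666 CPM with 10 nM. Its log2 fold change with 10 nM at 6 h was 0.24, with 1.96 SE either side from -0.22 to 0.71. With 0.1 nM it was 0.47 at 6 h (from 0.00 to 0.93) and 0.42 at 18 h (from -0.05 to 0.88). The 0.1 nM libraries lay above all vehicle libraries at both times, though neither difference was called (edgeR adjusted p = 0.613 and 0.572). Those of 10 nM overlapped vehicle at both times.

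Just inside the gene, low and high dose gave like levels. The region 6 kb past the start (chr2:11679328-11680883) had 19.7, 16.1 and 14.3 CPM with vehicle at 6 h, 36.6, 29.2 and 34.9 CPM with 0.1 nM, and 31.2, 30.6 and 34.0 CPM with 10 nM. Both doses stood above vehicle and overlapped each other. The rise was 1.91-fold with 10 nM (edgeR adjusted p = 0.000982) and 2.02-fold with 0.1 nM (edgeR adjusted p = 0.00733). The log2 difference between 10 nM and 0.1 nM was -0.07, with 1.96 SE either side from -0.44 to 0.29 (edgeR adjusted p = 0.835), so a difference of the size of the rise lies outside that range.

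At 18 h this region had 12, 12.9 and 13.8 CPM with vehicle, 28.9, 27.6 and 22.7 CPM with 0.1 nM, and 26.7, 19.2 and 18.4 CPM with 10 nM. The R5020 groups again overlapped each other and not vehicle. The rise was 1.67-fold with 10 nM (edgeR adjusted p = 0.00834) and 2.05-fold with 0.1 nM (edgeR adjusted p = 0.00394). The 0.1 nM call at 6 h was lost without 0.1 nM replicate 1 (edgeR adjusted p = 0.0544) or vehicle replicate 2 (edgeR adjusted p = 0.063), and the 10 nM call at 18 h when only the compared groups entered the fit (edgeR adjusted p = 0.0557).

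The region 9 kb past the start (chr2:11682385-11682977) changed more. At 6 h it had 5.36, 6.11 and 6.88 CPM with vehicle, 18.5, 13.1 and 18.8 CPM with 0.1 nM, and 21.1, 21.5 and 25.3 CPM with 10 nM. Its means at 18 h were 5.49 ± 1.06 CPM with vehicle, 10.3 ± 2.41 CPM with 0.1 nM and 10.3 ± 1.57 CPM with 10 nM (SD, n = 3 each). The R5020 groups stood above vehicle at both times, and overlapped each other at 18 h only.

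The rise of this region was 3.69-fold with 10 nM and 2.74-fold with 0.1 nM at 6 h (edgeR adjusted p = 2.83e-06 and 0.000874). At 18 h it was 1.88-fold with 10 nM and 1.89-fold with 0.1 nM (edgeR adjusted p = 0.00472 and 0.0254). The doses were not called apart: the log2 difference of 10 nM over 0.1 nM was 0.43 at 6 h (edgeR adjusted p = 0.166, or 0.0323 with the covariate and 0.0481 with only the compared groups) and -0.01 at 18 h (edgeR adjusted p = 0.993), with 1.96 SE either side from 0.03 to 0.83 and from -0.43 to 0.41. The 0.1 nM call at 18 h was lost without 0.1 nM replicate 1 or 2 or vehicle replicate 1 or 3, with edgeR adjusted p between 0.0973 and 0.148, and with only the compared groups (edgeR adjusted p = 0.053). The 6 and 9 kb regions, together with the one 9 kb before the start, were the 3 regions of the locus that rose in all 4 comparisons with vehicle.

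The region 37 kb past the start (chr2:11711303-11711662) was the one member called lower with 10 nM than with 0.1 nM. At 6 h the doses gave the same picture, with 1.89, 2.95 and 3.97 CPM with vehicle, 8.66, 7.93 and 9.42 CPM with 0.1 nM, and 8.76, 8.64 and 7.52 CPM with 10 nM. At 18 h it had 2.98, 2.01 and 3.24 CPM with vehicle, 12.4, 9.74 and 7.97 CPM with 0.1 nM, and 5.04, 3.52 and 4.47 CPM with 10 nM. The 3 groups were then apart, with 0.1 nM highest and 10 nM between it and vehicle.

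Against vehicle at 6 h, this region rose 2.79-fold with 10 nM (edgeR adjusted p = 0.000173) and 2.92-fold with 0.1 nM (edgeR adjusted p = 0.00191). The rise with 0.1 nM at 18 h was 3.69-fold (edgeR adjusted p = 0.000184), while the 1.60-fold difference with 10 nM was not called (edgeR adjusted p = 0.0645). With 10 nM it stood 2.30-fold below 0.1 nM at 18 h (log2 fold change -1.20, SE 0.24; edgeR adjusted p = 0.00254), and the blocked fit gave -1.21 (edgeR adjusted p = 0.000919). The 10 nM difference from vehicle at 18 h was called without 10 nM replicate 2 (log2 0.83, edgeR adjusted p = 0.0441), with total-count scaling (edgeR adjusted p = 0.0366) and with the covariate (edgeR adjusted p = 0.0343). The change of the 10 nM response between 18 h and 6 h was -0.80 on the log2 scale and was not called (edgeR adjusted p = 0.839).

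**Figure D3:**
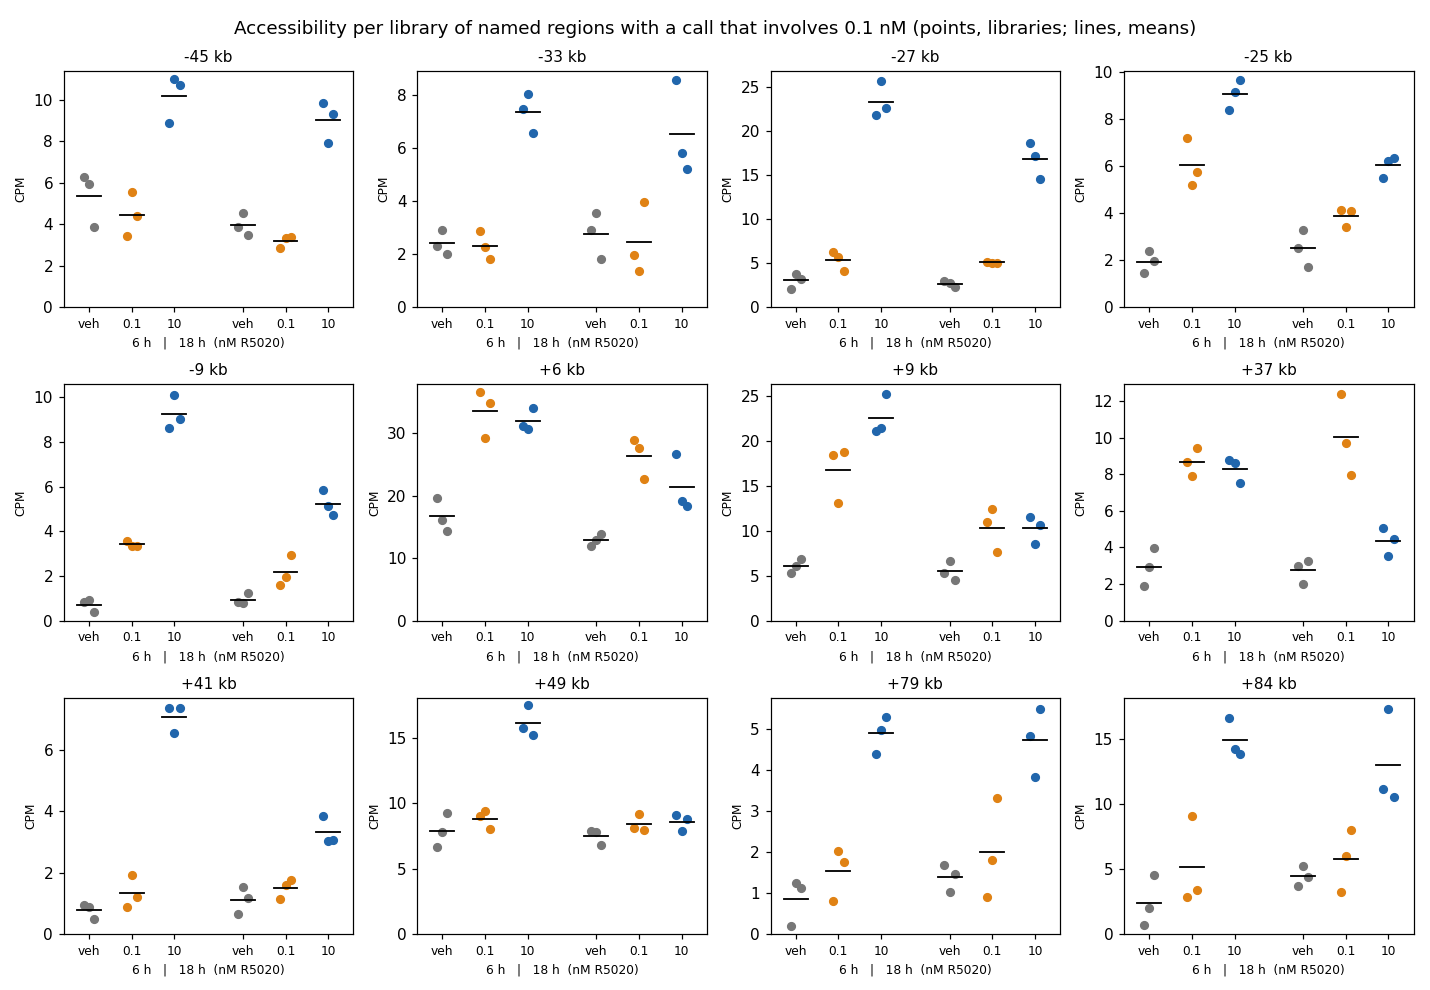
Accessibility in CPM (y axis) of each library (points; lines, means of 3 libraries) in 12 regions with a call in a comparison that involves 0.1 nM, each panel headed by its distance from the GREB1 start and divided into vehicle, 0.1 nM and 10 nM R5020 at 6 h and 18 h (x axis). The regions at +6 kb and +37 kb reached the 10 nM level with 0.1 nM at 6 h, while those at -45, -33, +41 and +49 kb were called with 10 nM only.

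Deeper in the gene the calls were nearly all of the high dose. The region 41 kb past the start (chr2:11714740-11715156) had the largest log2 fold change with 10 nM at 6 h of the regions inside the span that averaged at least 1 CPM. It had 0.945, 0.884 and 0.486 CPM with vehicle, 0.886, 1.91 and 1.21 CPM with 0.1 nM, and 7.35, 6.54 and 7.35 CPM with 10 nM. The 10 nM libraries lay far above the rest, and the other groups overlapped. The rise was 9.03-fold over vehicle (log2 3.18, SE 0.35; edgeR adjusted p = 1.71e-06) and 5.43-fold over 0.1 nM (edgeR adjusted p = 1.89e-05).

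At 18 h it had 0.647, 1.54 and 1.18 CPM with vehicle, 1.15, 1.59 and 1.75 CPM with 0.1 nM, and 3.84, 3.03 and 3.08 CPM with 10 nM. The 10 nM libraries were again the highest. The rise was 3.0-fold over vehicle (edgeR adjusted p = 0.00177) and 2.28-fold over 0.1 nM (edgeR adjusted p = 0.0237). The call between doses was lost without 10 nM replicate 1 or 0.1 nM replicate 1 or 2, with edgeR adjusted p between 0.0586 and 0.14, without the 2 libraries that lay apart (edgeR adjusted p = 0.0883), and with only the compared groups (edgeR adjusted p = 0.0867).

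The region 49 kb past the start (chr2:11722420-11723651), one of the 5 strongest of the locus in vehicle cells, rose with 10 nM at 6 h only. It had 6.62, 7.77 and 9.23 CPM with vehicle at 6 h, 9.01, 9.37 and 7.99 CPM with 0.1 nM, and 15.7, 17.5 and 15.2 CPM with 10 nM. Group means at 18 h were 7.46 ± 0.596 CPM with vehicle, 8.42 ± 0.673 CPM with 0.1 nM and 8.57 ± 0.643 CPM with 10 nM (SD, n = 3 each), with the R5020 groups overlapping each other just above vehicle. The difference was 2.04-fold at 6 h (edgeR adjusted p = 0.000124) and 1.15-fold at 18 h (edgeR adjusted p = 0.445). The test of the change itself gave -0.83 on the log2 scale (SE 0.24) with an unadjusted p of 0.00243 and did not pass the correction (edgeR adjusted p = 0.393).

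The regions 79 and 84 kb past the start rose with 10 nM at both times. The 79 kb region (chr2:11752895-11753296) had 0.21, 1.25 and 1.13 CPM with vehicle at 6 h, 0.798, 2.03 and 1.76 CPM with 0.1 nM, and 4.4, 4.99 and 5.30 CPM with 10 nM. It was 5.20-fold above vehicle with 10 nM at 6 h (edgeR adjusted p = 0.00064) and 3.37-fold at 18 h (edgeR adjusted p = 0.00664). The 10 nM libraries lay above every other library of their time point.

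The 84 kb region (chr2:11757800-11758826) was less even between libraries. It had 0.735, 1.99 and 4.53 CPM with vehicle at 6 h, 2.87, 9.07 and 3.41 CPM with 0.1 nM, and 16.6, 14.2 and 13.8 CPM with 10 nM. Vehicle and 0.1 nM overlapped, and 10 nM stood above both. It was 6.09-fold above vehicle with 10 nM at 6 h (edgeR adjusted p = 0.000292) and 2.91-fold at 18 h (edgeR adjusted p = 0.0151). The 18 h call was lost without 10 nM replicate 2 (edgeR adjusted p = 0.0614) or vehicle replicate 1 (edgeR adjusted p = 0.0788), and with the strongest-region share as a covariate (edgeR adjusted p = 0.0887). At 6 h its level with 10 nM was 2.97 times that with 0.1 nM (edgeR adjusted p = 0.0116), a call lost without 0.1 nM replicate 1 or 3 (edgeR adjusted p = 0.0693 and 0.0722). Both regions were called higher with 10 nM than with 0.1 nM at 18 h with the replicate block (edgeR adjusted p = 0.0134 for the 79 kb and 0.0216 for the 84 kb region) and not without it (edgeR adjusted p = 0.0597 and 0.0861).

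The part beyond the gene responded least. The region nearest to the GREB1 end, 113 kb past the start (chr2:11786993-11787155), is weak: it held 19, 12 and 40 reads with 10 nM at 6 h and 1, 7 and 3 reads with vehicle. That is 0.865 ± 0.319 CPM with 10 nM against 0.202 ± 0.0842 CPM with vehicle (SD, n = 3 each), a 3.97-fold rise (edgeR adjusted p = 0.0171). The call was lost without 10 nM replicate 3 (edgeR adjusted p = 0.0732) or vehicle replicate 1 (edgeR adjusted p = 0.0623), without the 2 libraries that lay apart (edgeR adjusted p = 0.0557), and with the strongest-region share as a covariate (edgeR adjusted p = 0.0903). The strong region 136 kb past the start (chr2:11809900-11810400) averaged 12 ± 2.23 CPM with vehicle at 6 h, 13.4 ± 2.14 CPM with 0.1 nM and 11.2 ± 0.649 CPM with 10 nM, and was not called in any comparison.

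The 4 falls with 10 nM were smaller than most rises and less stable. Inside the gene, the region at chr2:11698503-11698835 had 1.31, 1.11 and 1.79 CPM with 10 nM at 6 h against 3.05, 3.46 and 2.75 CPM with vehicle (2.19-fold lower, edgeR adjusted p = 0.0104). Its neighbour at chr2:11698908-11699807 had 1.60, 2.21 and 2.98 CPM with 10 nM at 18 h against 4.01, 3.55 and 5.01 CPM with vehicle (1.91-fold lower, edgeR adjusted p = 0.0228). Both pairs of groups were apart, yet neither region was called lower at both times. The log2 fold changes at the other time, -0.21 at 18 h and -0.42 at 6 h, were not called (edgeR adjusted p = 0.69 and 0.278). At chr2:11698503-11698835 the groups overlapped at 18 h. At chr2:11698908-11699807 the 10 nM libraries also lay below vehicle at 6 h, with 3.42, 2.54 and 3.95 CPM against 4.31, 4.83 and 4.13 CPM.

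Beyond the gene, the region 159 kb past the start (chr2:11832991-11833367) had 2.81, 3.07 and 2.20 CPM with 10 nM at 6 h against 5.46, 4.68 and 4.13 CPM with vehicle (1.77-fold lower, edgeR adjusted p = 0.0408). The one 144 kb past the start (chr2:11817543-11817703) had 1.02, 0.736 and 0.932 CPM with 10 nM at 18 h against 1.90, 2.11 and 2.18 CPM with vehicle (2.25-fold lower, edgeR adjusted p = 0.0168). Each of the 4 calls was lost when some single libraries were left out. For the 6 h falls these were any 10 nM library or vehicle replicate 1 or 2 at the 159 kb region (edgeR adjusted p from 0.0733 to 0.202), and 10 nM replicate 1 or 2 or vehicle replicate 2 at chr2:11698503-11698835 (from 0.0519 to 0.0654). For the 18 h falls they were 10 nM replicate 1 or 2 or vehicle replicate 1 or 3 at chr2:11698908-11699807 (edgeR adjusted p from 0.0526 to 0.102), and 10 nM replicate 2 at the 144 kb region (0.0648). The 159 kb call was also lost with other library scalings, with no filter on low counts and with the covariate (edgeR adjusted p from 0.0528 to 0.397), and both 18 h calls when only the compared groups entered the fit (edgeR adjusted p = 0.079 and 0.0583). The call at chr2:11698908-11699807 was lost with total-count scaling too (edgeR adjusted p = 0.0973), and that at the 144 kb region with the covariate (edgeR adjusted p = 0.0587). Without the 2 libraries that lay apart, the calls at the 159 kb region and at chr2:11698908-11699807 were lost (edgeR adjusted p = 0.143 and 0.109).

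The last question was how the response changed between the times. All 15 regions that rose with 10 nM at 18 h were among the 26 that rose at 6 h, which is 100% of the 18 h calls and 57.7% of the 6 h calls. Over all tested regions, 13449 rises were shared, which is 79.2% of the 18 h calls and 60.8% of the 6 h calls. None of the 2 regions called lower at one time was called lower at the other. Over all tested regions 6493 such calls were shared, 64.9% of those at 18 h and 58.3% of those at 6 h. All 26 rises of 6 h had a positive log2 fold change at 18 h, and in 24 of them it was smaller; the 26 were picked by their 6 h values, which favours a smaller value at the other time. Of the 6 h rises over all tested regions, 97.3% were positive at 18 h and 81.1% were smaller. With 0.1 nM, 4 of the 5 rises were shared between the times, 80.0% of each, beside 38.4% of the 18 h rises and 70.6% of the 6 h rises over all tested regions. Of the 13 regions higher with 10 nM than with 0.1 nM at 6 h, 5 were also higher at 18 h, which is 38.5% of the 6 h calls and 100% of the 18 h ones, beside 39.3% and 88.9% over all tested regions. These overlaps are descriptions, with no test of a difference between the locus and all regions.

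None of the 47 regions passed the test of the change itself. For 10 nM, the response at 18 h minus that at 6 h had a median log2 value of -0.32 over the 47 regions, beside -0.02 over all tested regions, and was positive in 11 of 47. There were 0 calls at the locus by edgeR and by DESeq2, while 10 of the 47 regions had an unadjusted edgeR p under 0.05, as did 7371 of all 132304 regions; edgeR called 0.00151% of all regions lower and 0% higher. At the 41 kb region the change was -1.59 (SE 0.48, unadjusted p = 0.00368, edgeR adjusted p = 0.453). For 0.1 nM the median was -0.05 at the locus and 0.01 over all regions, with 0 calls by either tool and 2 unadjusted edgeR p under 0.05 at the locus and 3352 among all regions. Vehicle at 18 h against vehicle at 6 h gave 0 calls by either tool at the locus and 0% of all regions by edgeR, with 3 unadjusted edgeR p under 0.05 at the locus and 3796 among all regions.

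Levels were also summed over each part of the locus. Inside the GREB1 span the 25 regions together had 78.3, 74.5 and 79.3 CPM with vehicle at 6 h, 125, 116 and 124 CPM with 0.1 nM, and 172, 164 and 169 CPM with 10 nM. At 18 h they had 71.4, 73.5 and 81.6 CPM with vehicle, 114, 116 and 111 CPM with 0.1 nM, and 119, 121 and 117 CPM with 10 nM. The 3 groups were apart at each time, with a wide step between the doses at 6 h and a narrow one at 18 h. The mean sum with 10 nM was 119 ± 1.67 CPM at 18 h against 168 ± 3.86 CPM at 6 h, and that with 0.1 nM was 114 ± 2.73 CPM at 18 h against 122 ± 4.66 CPM at 6 h (SD, n = 3 each).

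Before the start the sums were less even, and they include the 68 kb region that differed widely between libraries. They were 86.6 ± 16.5 CPM with vehicle at 6 h, 88.6 ± 10.9 CPM with 0.1 nM and 122 ± 6.38 CPM with 10 nM, and 73.2 ± 13, 71.3 ± 10.6 and 94.7 ± 16.0 CPM in the same groups at 18 h (SD, n = 3 each). At 18 h the 10 nM replicate 1, one of the 2 libraries that lay apart, had 113 CPM and the other replicates 88.2 and 83.0 CPM, against 82.1, 79.4 and 58.3 CPM with vehicle. Beyond the end the sums were 39.9 ± 4.04, 44.9 ± 2.42 and 49.1 ± 2.86 CPM with vehicle, 0.1 nM and 10 nM at 6 h, and overlapped among all 3 groups at 18 h. Sums were not tested.

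**Figure D4:**
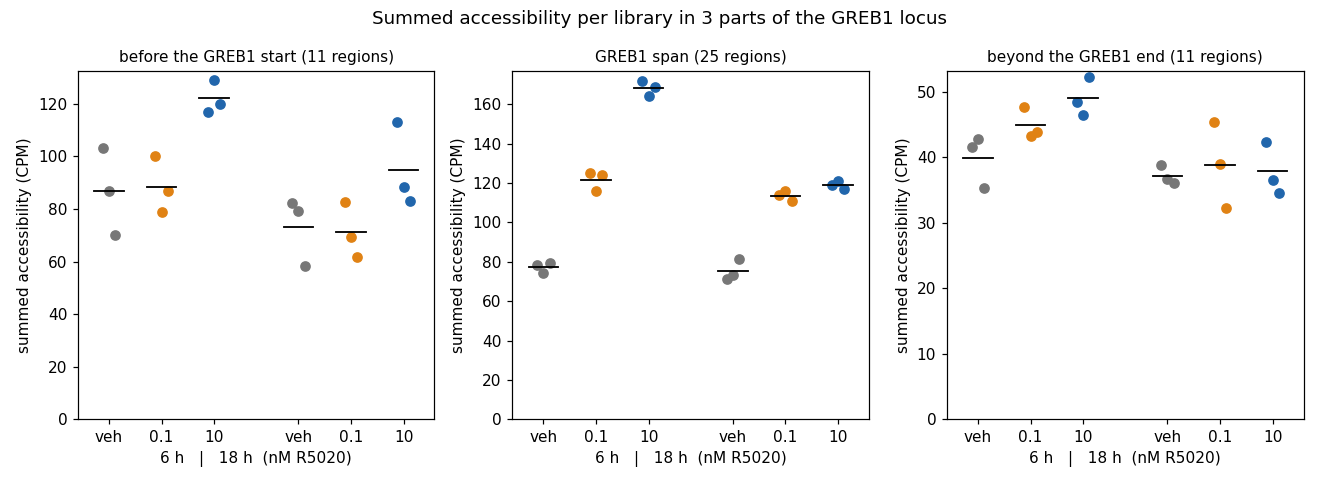
Summed accessibility in CPM (y axis, from 0) of the regions before the GREB1 start, inside its span and beyond its end, for each library (points; lines, means of 3), with vehicle, 0.1 nM and 10 nM R5020 at 6 h and 18 h (x axis). Inside the span the 10 nM libraries stood at 164 to 172 CPM at 6 h and 117 to 121 CPM at 18 h, while vehicle stayed between 71.4 and 81.6 CPM.

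The pattern of the 41 kb region across the 18 libraries was compared with that of every other region by Pearson's r of log2 CPM, as a description. The libraries share depth and dose groups, so r is high for any region that follows dose. Within the locus the most alike were the 27 kb region before the start (r = 0.897), the 9 kb region before the start (r = 0.887) and the region at chr2:11686540-11687277 inside the gene (r = 0.82). The median r over the other members was 0.51, beside -0.03 over all tested regions. None of the members had an r over 0.9, and 0.701% of all tested regions did. With a share this small, none among so few members is no contrast with all regions. Regions elsewhere with an r over 0.9 included chr5:32259117-32259537 (r = 0.98), chr20:33225175-33225896 (r = 0.965) and chr6:45593656-45594262 (r = 0.964). They had the highest r of the regions searched outside the window. Not every chromosome was searched, so no ranking over all regions elsewhere is given.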

How the data were processed

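Omni-ATAC-seq was run on 18 libraries of T47D cells, 3 in each of 6 groups. The authors deposited raw read counts per region in 1 table; hg19, BWA and MACS2 are named in the submitters' processing notes. The sources used here do not give versions, read filters, any Tn5 shift or how the region list was made. Region starts are printed as the table has them, and whether they count from 0 or 1 is not stated.

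The test was edgeR 4.0.16 (R 4.3.3). The filter filterByExpr (minimum count 10, minimum total 15) kept 132304 of 132604 regions, TMM gave the library scaling, and glmQLFit and glmQLFTest were applied to group means of the 18 libraries together (12 residual degrees of freedom). P-values were adjusted over all tested regions (Benjamini-Hochberg) and called under 0.05. The SE of a log2 fold change was its absolute value over the root of F; ranges are 1.96 SE either side. A prior count of 2 went into log2 CPM. The steps were tested on simulated counts. Totals of 8756311 to 39984217 reads per library limit the precision of weak regions, whose counts reached down to 1.

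Replicates were not repeats of 1 library: the chi-square per degree of freedom between them was 3.28 to 27.8. Titles number the replicates 1 to 3 and state no pairing. With a limit of 0.1 for the correlation of deviations, every pair of equal number passed between 10 nM and 0.1 nM at 18 h (0.6, 0.19 and 0.45) and between vehicle at 18 h and 6 h (0.32, 0.12 and 0.45), while other comparisons had a pair below it.

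The members, lists and rules were chosen with earlier results of these data known. Named regions are the called members with the largest changes per comparison (4 each way against vehicle, 3 each way between doses), the 5 with the highest vehicle level and those nearest to the GREB1 start and end. The alternatives were DESeq2 1.42.0, other library scalings, no filter, only the compared groups, each library left out, the replicate block, the share of the 5000 strongest regions as a covariate and a threshold of 0.01. Leaving out the 2 most deviating libraries together was added after seeing the data. Motifs and gene lists are not analysed here, as no annotation of this build was used.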

Additional observations from a re-analysis of the deposited data

How the results depend on the processing

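Of 70 pairs of a named region and a comparison, 51 were called. None of these 51 changed direction under the 27 other settings, and 37 were called under each setting that applied to them. Not every named region was paired with every comparison, and most were named for their calls. These counts are therefore no rates for the locus. No fall with 10 nM was called under every setting, and each was lost under 4 to 11 of them. Rises with 0.1 nM at 18 h were lost under up to 7 settings. At 6 h the 2 falls became 1 with DESeq2-style factors in edgeR, with total-count scaling, with no filter and without the 2 deviating libraries, and 0 at a threshold of 0.01. At 18 h the 2 falls became 1 with total-count scaling, with the covariate and without the 2 deviating libraries, and 0 with only the compared groups or at 0.01. With single libraries left out, falls numbered 0 to 2 at each time. The 5 rises with 0.1 nM became 8 with the covariate at 6 h; at 18 h they became 2 with only the compared groups or at 0.01, and 2 to 5 with single libraries left out. Regions lower with 10 nM than with 0.1 nM at 6 h numbered 0, but 1 with DESeq2, 1 with only the compared groups, 2 with the replicate block and 0 to 1 with single libraries left out. At 18 h there was 1 such region, but 2 with DESeq2, 2 with the block, and 1 to 2 with single libraries left out; the 5 higher regions became 9 with the covariate and 3 with only the compared groups. The cause was not tested.

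The replicate block changed no other count of calls by more than 1.5 times. With it, 26 regions rose with 10 nM at 6 h and 18 at 18 h, and 7 with 0.1 nM at 6 h. Under the block the share of all tested regions was taken only for 10 nM against 0.1 nM at 18 h. There 8.86% were higher, against 6.67% without the block. Counts of this section with no such share given describe stability at the locus only. In comparisons where not every pair of equal number passed the limit, the block is given for completeness.

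Reversals touched values with no call; ranges here are over the single libraries left out. For 10 nM against 0.1 nM at 6 h, the log2 fold change of the 6 kb region was 0.01 with total-count scaling, 0.18 with the covariate and -0.13 to 0.02, and that of the 37 kb region 0.02, 0.04 and -0.09 to 0.03 in that order. At 18 h the region 9 kb past the start gave 0.09 with total-count scaling, 0.11 with the covariate, 0.00 with only the compared groups and -0.18 to 0.13. For 0.1 nM against vehicle, the region 33 kb before the start gave -0.28 to 0.10 at 6 h and -0.67 to 0.04 at 18 h, the 79 kb region -0.08 to 0.84 at 18 h, and the 84 kb region -0.01 with the covariate at 18 h. Total-count scaling moved the median log2 fold change of all regions to 0.17 for 10 nM against vehicle at 18 h, against 0.01 with TMM. All counts for the comparisons of the times were 0 under every setting that was run.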
